A study of Mus musculus with 6 samples.

Results

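The genes described here encode the proteins with which a cell senses its cytosolic iron and the chaperones that carry that iron. They are Aco1, Ireb2 and Fbxl5, the sensors, and Pcbp1 and Pcbp2, the chaperones. They were taken by symbol from the deposited table, and all 5 were found among its 35275 genes. RNA sequencing of epididymal fat, a visceral depot next to the testis, compared 3 knockout samples, labelled TfrcAKO, with 3 control samples, labelled Tfrcfl/fl, whose transferrin receptor gene Tfrc carries loxP sites on either chromosome. TfrcAKO is known as a deletion in adipocytes; the labels used here spell out neither the abbreviation nor the Cre driver. Both groups were male C57BL/6 mice that were 2 months old when a 60% high fat diet began, which lasted 10 weeks; tissue was taken at an age of 4.5 months. Whether each sample was its own animal is not stated in the labels, and p-values therefore cover only the spread among these samples.

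Cytosolic iron is governed largely after transcription. The iron regulatory proteins IRP1, made from Aco1, and IRP2, made from Ireb2, bind a stem-loop in mRNAs called the iron-responsive element (IRE) when iron is scarce. Binding in a 5′ untranslated region (UTR) blocks translation, as for ferritin, and binding in the 3′ UTR protects the mRNA from decay, as for Tfrc. With iron at hand IRP1 takes up an iron-sulfur cluster and works as the cytosolic aconitase, which turns citrate into isocitrate, while IRP2 is marked for destruction by FBXL5, an F-box protein that itself holds iron through a hemerythrin domain. PCBP1 and PCBP2 are RNA-binding proteins of poly(rC) sequences that also carry ferrous iron to ferritin and to iron enzymes. An mRNA level therefore reports neither the RNA-binding activity of the IRPs nor the amount of IRP2 protein.

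The element that IRP1 and IRP2 recognise was read from GENCODE M21 transcripts (build GRCm38, the same assembly as mm10) in the UTRs of 10 known target genes, because it ties the sensors to the mRNAs described further on. The letters searched were CNNNNNCAGTGNNNNNN on the transcript strand, with the 5 bases before the loop pairing with the last 5, G-T pairs allowed. Capitals mark the 6-base loop, and T stands for U.
Fth1: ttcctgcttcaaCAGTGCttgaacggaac
Ftl1: gtcttgcttcaaCAGTGTttgaacggaac
Slc40a1: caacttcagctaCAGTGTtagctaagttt
Tfrc, most upstream of its sites: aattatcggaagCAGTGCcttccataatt
Tfrc, most downstream: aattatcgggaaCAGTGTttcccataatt
The first 3 lie in 5′ UTR exons, at chr19:9982732-9982760 (plus strand) for Fth1, chr7:45459779-45459807 (minus strand) for Ftl1 and chr1:45925465-45925493 (minus strand) for Slc40a1. The Tfrc pair lies in its 3′ UTR, at chr16:32631219-32631247 and chr16:32631710-32631738 (plus strand), and Tfrc had 4 such sites in all. Of 6 targets of the 5′ kind 5 held a match, among them Alas2, whose match spans a splice junction. Of 4 targets of the 3′ kind only Tfrc held one. In all annotated coding genes with a UTR of that kind, the letters alone occurred in 12% for 5′ UTRs and 35.8% for 3′ UTRs, and with the paired stem in 0.148% and 0.613%. A match is a description of the letters, and a gene without one may hold a stem of another form.

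Deposited values were FPKM, fragments per kilobase of gene length and 1000000 assigned reads, so levels of different genes can be set side by side. Depth recovered from the values ran from 25252839 to 30650624 assigned reads per sample. The 5 genes had 1425 to 5920 reads each per sample, and counting error at the lowest count of each gene was 0.02 to 0.04 on the log2 scale (SD), which is below the limma standard errors given here. Tfrc, the deleted gene, was at 7.10, 8.27 and 9.50 FPKM in knockout replicates 1, 2 and 3, against 11.1, 13.2 and 11.9 FPKM in control replicates 1, 2 and 3. Adipoq, an adipocyte marker, averaged 1464 ± 356 FPKM in knockout and 384 ± 98.9 FPKM in control tissue (SD, n = 3 each). The 5 epididymal epithelium markers, none of which passed the filter on low values, summed to 1.63, 0.364 and 0 FPKM in knockout replicates 1, 2 and 3 and to at most 0.0527 FPKM in control samples. Cell type markers differed between the groups. All 12 mature adipocyte markers were called higher in knockout tissue, with summed levels of 20430 to 28289 FPKM in knockout and 8346 to 11677 FPKM in control samples. Of 12 macrophage markers 11 were called lower, with sums of 1142 to 2561 FPKM in knockout and 4842 to 5743 FPKM in control samples, and none of either list was at 0. Endothelial markers (6 of 6 higher), mesothelial markers (5 of 6 higher) and red blood cell genes (4 of 4 tested higher) moved too, while 2 of 6 progenitor markers were called lower and none of 6 lymphocyte markers was called. Whole tissue cannot tell fewer cells of a type from less RNA per cell, and the part of cell composition in the results below was not tested.

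All 5 genes passed the filter on low values, and 2 of them, or 40%, were called at a limma adjusted p under 0.05: Aco1 higher and Pcbp1 lower in knockout tissue. Over all 14383 tested genes 43.5% were called, 21.9% higher and 21.6% lower, so the share among the 5 is near that of the whole table. Groups without overlap were found for 3 of the 5 genes, against 60.1% of all tested genes (29.1% higher and 31% lower in knockout). Ireb2, Fbxl5 and Pcbp2 were not called.

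**Figure D1:**
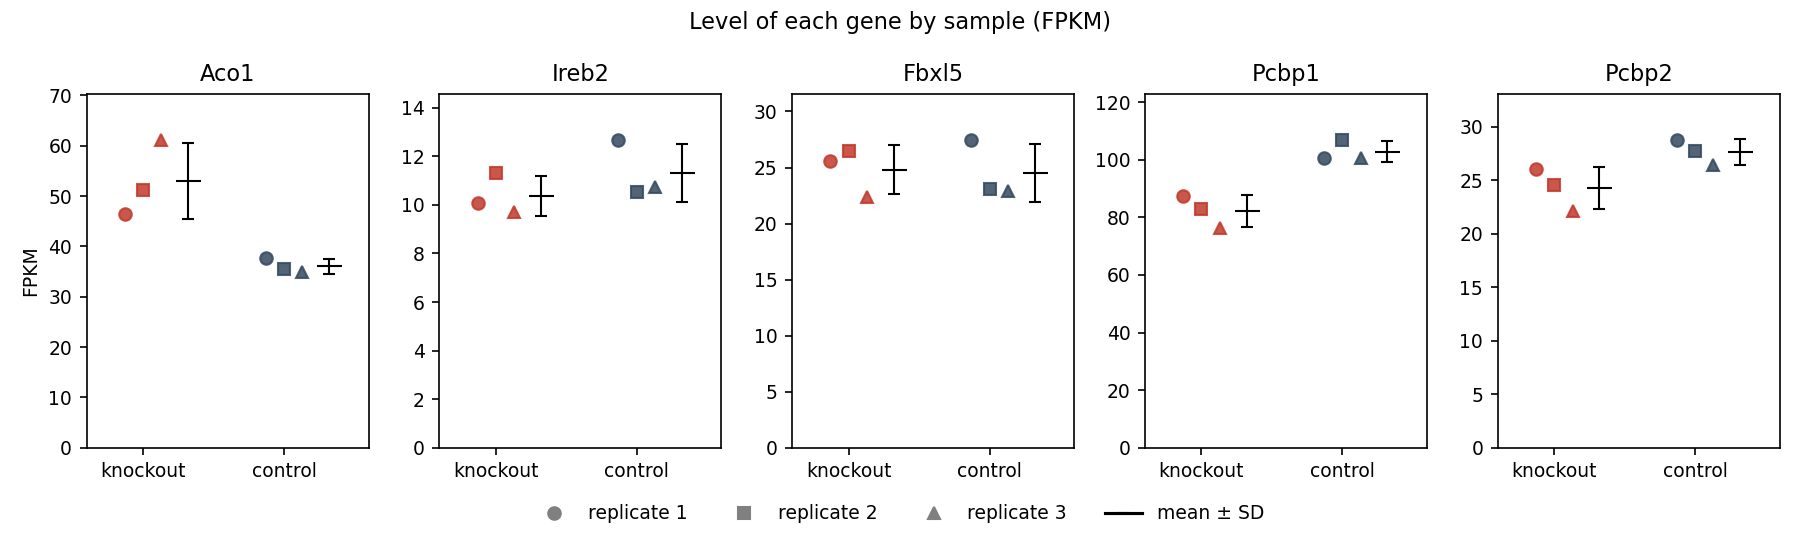
FPKM of each gene in each sample, knockout left and control right, with the mean and SD (n = 3) as a black bar; each panel has its own axis from 0. Aco1 samples lie between 46.4 and 61.2 FPKM in knockout, all above the control samples, Pcbp1 samples lie between 76.2 and 87.2 FPKM, all below them, and the Ireb2 and Fbxl5 groups overlap.

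Aco1 encodes the protein that is either IRP1 or cytosolic aconitase (ENSMUSG00000028405, mm10 chromosome 4, 40143081 to 40198338, plus strand). It was at 46.4, 51.3 and 61.2 FPKM in knockout replicates 1, 2 and 3, against 37.8, 35.5 and 35.0 FPKM in control replicates 1, 2 and 3. Each knockout sample was above each control sample, and replicate 3 was the highest of the knockout samples. The means were 52.9 ± 7.52 FPKM in knockout and 36.1 ± 1.5 FPKM in control tissue (SD, n = 3 each). Aco1 rose by 0.54 ± 0.11 on the log2(FPKM + 0.5) scale (SE; 95% interval 0.28 to 0.80; limma adjusted p = 0.0102), a 1.45-fold change. Of all tested genes 29.4% had a larger absolute change. The call held in each of 14 alternative fits, with changes of 0.42 to 0.63 and limma adjusted p between 0.00374 and 0.0453. Without knockout replicate 3 the change was 0.43. That library also had the highest summed adipocyte markers, 28289 FPKM, and the lowest summed macrophage markers, 1142 FPKM. Each of the 12 adipocyte markers had a larger change than Aco1, between 0.62 and 3.27 with a median of 1.77 on the log2 scale.

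Ireb2 encodes IRP2, the iron regulatory protein that is controlled by degradation (ENSMUSG00000032293, chromosome 9, 54863755 to 54912534, plus strand). Its level was 10.1, 11.3 and 9.72 FPKM in knockout replicates 1, 2 and 3 and 12.7, 10.5 and 10.7 FPKM in control replicates 1, 2 and 3. The groups overlapped, with the highest value in control replicate 1. The means were 10.4 ± 0.83 FPKM in knockout and 11.3 ± 1.19 FPKM in control tissue (SD, n = 3 each). The log2 fold change was −0.12 ± 0.10 (SE; limma adjusted p = 0.369), with a 95% interval of −0.35 to 0.12.

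Fbxl5, the substrate receptor of the ubiquitin ligase that removes IRP2 (ENSMUSG00000039753, chromosome 5, 43744616 to 43821639, minus strand), was at 25.6, 26.5 and 22.4 FPKM in knockout replicates 1, 2 and 3. Control replicates 1, 2 and 3 had 27.5, 23.1 and 22.9 FPKM. The groups overlapped throughout, and the means were 24.8 ± 2.16 FPKM in knockout and 24.5 ± 2.58 FPKM in control tissue (SD, n = 3 each). The log2 fold change was 0.02 ± 0.10 (SE; limma adjusted p = 0.891), with a 95% interval of −0.22 to 0.26, and its sign turned when any of 4 libraries was left out. Fbxl5 shares 98 of 9740 exonic bases annotated in GENCODE M21 with Bst1 on the opposite strand. Its deposited gene length was 4236 bases, so the exons counted may differ from these. The strand setting of the counting is not given in the sources used here. Bst1 was at 2.75 to 5.62 FPKM in knockout and 15.9 to 19.4 FPKM in control samples.

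Within each sample the balance of the sensors can be read as a ratio of their levels per length. Aco1 over Ireb2 was 4.60, 4.53 and 6.30 in knockout replicates 1, 2 and 3, against 2.98, 3.37 and 3.26 in control replicates 1, 2 and 3. Every knockout sample had the larger ratio, and the log2 difference was 0.67. An exact two-sided permutation test gave p = 0.1, the smallest value that 3 samples against 3 can reach. Aco1 made up 83.5% ± 2.46 of the summed Aco1 and Ireb2 level in knockout and 76.2% ± 1.17 in control tissue (SD, n = 3 each), and the sum itself was 63.3 ± 7.23 FPKM in knockout and 47.4 ± 2.66 FPKM in control tissue. Fbxl5 over Ireb2, the receptor against its substrate, was 2.54, 2.34 and 2.30 in knockout replicates 1, 2 and 3, against 2.17, 2.20 and 2.14 in control replicates 1, 2 and 3. These groups did not overlap either, although neither gene was called alone, with a log2 difference of 0.14 and the same exact p of 0.1. Of single tested genes 60.1% had groups without overlap, and the share among ratios of other gene pairs was not examined. Over the 3 ratios examined, adjustment by Benjamini-Hochberg leaves each p at 0.1.

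**Figure D2:**
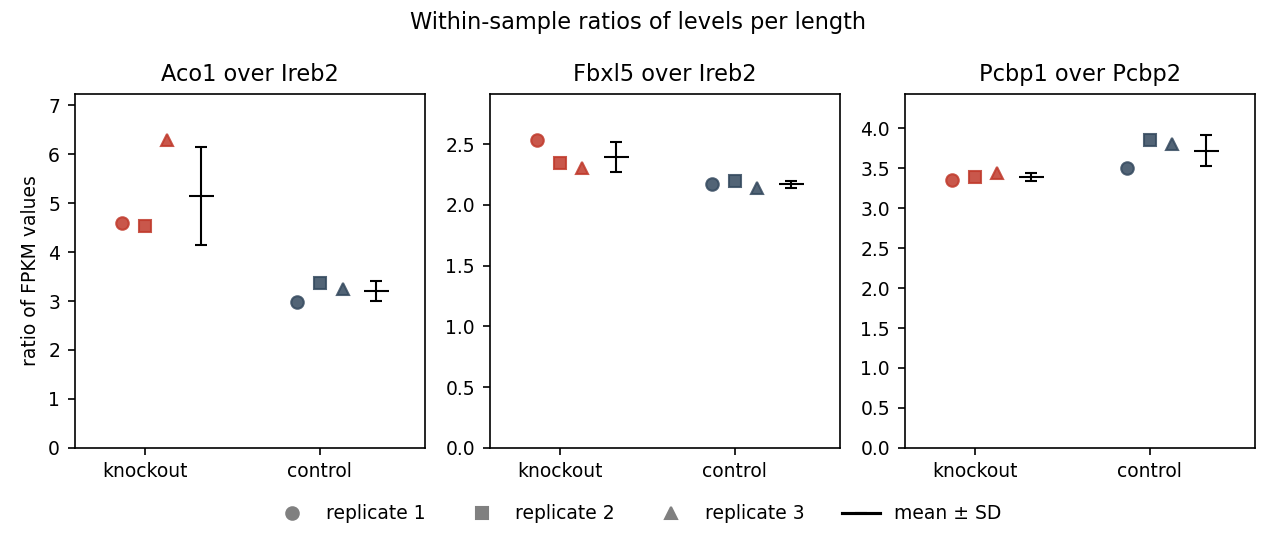
Ratios of FPKM values within each sample, knockout left and control right, with the mean and SD (n = 3) as a black bar; each axis starts at 0. Aco1 over Ireb2 averages 5.14 in knockout and 3.20 in control samples, and the groups do not overlap in any of the 3 panels. How often ratios of other gene pairs lack overlap was not examined.

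Pcbp1 encodes the chaperone best known for delivering iron to ferritin (ENSMUSG00000051695, chromosome 6, 86524492 to 86526321, minus strand). It was at 87.2, 83.0 and 76.2 FPKM in knockout replicates 1, 2 and 3, against 101, 107 and 101 FPKM in control replicates 1, 2 and 3. All knockout samples were below all control samples, with replicate 3 the lowest. The means were 82.1 ± 5.56 FPKM in knockout and 103 ± 3.64 FPKM in control tissue (SD, n = 3 each). Pcbp1 fell by 0.32 ± 0.08 on the log2 scale (SE; 95% interval −0.52 to −0.13; limma adjusted p = 0.0206), to 0.80 of the control level. The call did not hold without some single libraries: the limma adjusted p was 0.0516 without control replicate 1, 0.0792 without control replicate 2, 0.0661 without control replicate 3 and 0.0540 without knockout replicate 2. The change in those 4 fits lay between −0.34 and −0.29. Of all tested genes 48.7% had a larger absolute change.

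Pcbp2, the paralogue that also binds iron transporters (ENSMUSG00000056851, chromosome 15, 102470632 to 102500059, plus strand), was at 26.0, 24.5 and 22.2 FPKM in knockout replicates 1, 2 and 3. Control replicates 1, 2 and 3 had 28.8, 27.7 and 26.4 FPKM. The lowest control sample and the highest knockout sample were 26.4 and 26.0 FPKM, so the groups lay next to each other without overlap. The means were 24.2 ± 1.95 FPKM in knockout and 27.6 ± 1.19 FPKM in control tissue (SD, n = 3 each), and the log2 fold change was −0.19 ± 0.08 (SE; 95% interval −0.38 to 0.01; limma adjusted p = 0.102). Pcbp1 over Pcbp2 was 3.35, 3.39 and 3.44 in knockout replicates 1, 2 and 3, against 3.50, 3.86 and 3.81 in control replicates 1, 2 and 3. The log2 difference was −0.13, with an exact two-sided permutation p of 0.1, the smallest possible. Both chaperones were lowest in knockout replicate 3. That library had the lowest macrophage and progenitor sums and the highest adipocyte, endothelial and red blood cell sums. The part of cell composition in these levels was not tested.

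The chaperone genes are close copies of each other, which may bear on how their reads were assigned, and this was not tested. Over 1056 aligned coding bases Pcbp1 and Pcbp2 were identical at 82.4%, and their longest identical stretch was 33 bases. Aco1 and Ireb2 were identical at 64.9% of 2651 aligned coding bases, with a longest identical stretch of 14 bases. Pcbp2 shares 1573 of 5203 exonic bases annotated in GENCODE M21 with Map3k12 on the opposite strand. It also shares 182 with Gm27406 on the same strand and 129 with Gm26518 on the opposite strand. No level of Gm27406 was found in the deposited values. Gm26518 was at 0.315 to 0.487 FPKM in knockout and 0.231 to 0.384 FPKM in control samples. The deposited gene length of Pcbp2 was 2868 bases, so the share of counted bases that overlap is not known. Map3k12 was at 2.85 to 3.18 FPKM in knockout and 3.06 to 3.34 FPKM in control samples. Pcbp1 shares 75 of 1830 exonic bases with the antisense gene 1600020E01Rik, at 3.11 to 3.35 FPKM in knockout and 2.59 to 3.03 FPKM in control samples.

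Per length, Pcbp1 was the highest of the 5 genes in all 6 samples, Aco1 the next and Ireb2 the lowest. Fbxl5 and Pcbp2 lay between Aco1 and Ireb2 and could not be ordered in knockout tissue, where they averaged 24.8 ± 2.16 and 24.2 ± 1.95 FPKM (SD, n = 3 each). In control tissue Pcbp2 was above Fbxl5 in each sample. By mean level among all tested genes Pcbp1 stood at percentile 94.6 in knockout and 95.9 in control tissue, and Ireb2 at percentile 60.9 in knockout and 62.6 in control tissue. Aco1 stood at percentile 91.5 in knockout and 87.1 in control tissue.

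**Figure D3:**
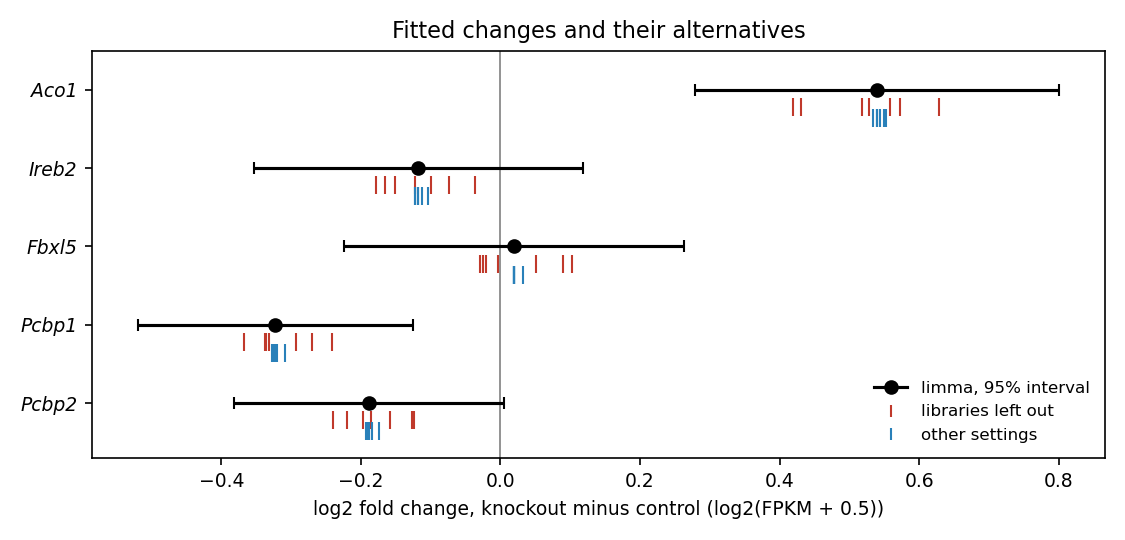
Log2 fold change of each gene, knockout minus control, with its 95% limma interval (black), and below it the values with 1 or 2 libraries left out (red ticks) and under other settings (blue ticks). Aco1 stays above 0 and Pcbp1 below 0 throughout, while the ticks of Fbxl5 fall on both sides of 0.

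Around these sensors and chaperones, 37 genes of 7 small lists were all tested. Of these 16 were called, 9 higher and 7 lower in knockout tissue, with the deleted gene Tfrc among the lower ones. That is 43.2% called, 24.3% higher and 18.9% lower, again near the shares over all tested genes, whose median log2 fold change was −0.03. Without control replicate 2 or control replicate 3 the number called in these lists was 10.

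Among the 6 listed targets of the 5′ kind, 3 were called lower and 3 higher in knockout tissue, with a median log2 fold change of 0.02. Of these, Epas1 held no match to the letters and stem searched. The ferritin chains Fth1 and Ftl1 fell by 0.85 ± 0.18 and 1.45 ± 0.23 (SE; limma adjusted p = 0.0108 and 0.00555). Both have processed copies that may make their values uncertain, which was not tested. Slc40a1, the iron exporter ferroportin, fell by 1.36 ± 0.16 (limma adjusted p = 0.00372). The 12 macrophage markers had a median change of −1.26, and the part of cell composition in the 3 falls was not tested. Epas1, the hypoxia factor HIF-2α, rose by 0.97 ± 0.15 (limma adjusted p = 0.00533), and it is also made by endothelial cells, whose 6 markers had a median change of 1.17. Alas2, the erythroid enzyme of heme synthesis, rose by 1.12 ± 0.18 (limma adjusted p = 0.00581), while the red blood cell genes summed to 1459 to 1992 FPKM in knockout and 514 to 906 FPKM in control samples. Genes with a match in the 5′ UTR thus moved both ways.

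Of the 4 listed targets of the 3′ kind, only Tfrc held a match to the letters and stem searched. Tfrc fell by 0.52 ± 0.12 on the log2 scale (SE; limma adjusted p = 0.0147). Tfrc is the gene deleted in the knockout, so its fall is not read here as that of an IRE target. Its call ended without control replicate 2 or control replicate 3 (adjusted p up to 0.0595). Cdc42bpa, a kinase whose mRNA carries the element in human cells, rose by 0.58 ± 0.08 (limma adjusted p = 0.00416). For Slc11a2, the metal transporter DMT1, the change was −0.18 ± 0.10 on the log2 scale and missed the threshold (limma adjusted p = 0.173). The list, Tfrc included, had a median of −0.18, with 1 of 4 higher and 1 lower, which was Tfrc.

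Among 6 listed partners of the ubiquitin ligase that FBXL5 belongs to, 1 was called. Skp1a, the adaptor that joins F-box proteins to the cullin, rose to 88.6 ± 5.56 FPKM in knockout, against 68.2 ± 3.33 FPKM in control tissue (SD, n = 3 each). Its log2 fold change was 0.37 ± 0.08 (SE; limma adjusted p = 0.0126), and the call ended without control replicate 2 or 3 (adjusted p up to 0.0560). The list's median was −0.12.

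The cytosolic iron-sulfur cluster machinery builds the cluster that turns IRP1 into aconitase. Of its 9 genes 2 were called lower and none higher, with a median of −0.17. Over all tested genes 21.6% were called lower and 21.9% higher. Fam96a encodes CIA2A, known in human cells as the targeting factor that matures IRP1 and binds IRP2. It was at 32.8, 33.8 and 26.7 FPKM in knockout replicates 1, 2 and 3, against 49.3, 56.6 and 55.3 FPKM in control replicates 1, 2 and 3. No knockout sample reached the lowest control sample. Fam96a fell by 0.79 ± 0.11 on the log2 scale (SE; limma adjusted p = 0.00444) and was called in each of 14 alternative fits, with changes between −0.85 and −0.64. Narfl, another factor of this machinery, fell by 0.33 ± 0.08 (limma adjusted p = 0.0152), and lost its call without control replicate 2 (adjusted p = 0.0610), without control replicate 3 (0.0573) and without knockout replicate 3 and control replicate 2 together (0.0629).

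Among partners and iron clients of the chaperones, 2 of 6 were called higher and 1 lower, with a median of −0.03. Glrx3 and Bola2 form a cytosolic complex that receives iron from PCBP1 to build iron-sulfur clusters, and they moved in opposite directions. Glrx3 was at 88.4, 91.5 and 104 FPKM in knockout replicates 1, 2 and 3, against 58.4, 56.0 and 53.8 FPKM in control replicates 1, 2 and 3, and rose by 0.75 ± 0.09 (SE; limma adjusted p = 0.00370). Bola2 was at 27.3, 27.3 and 18.9 FPKM in knockout replicates 1, 2 and 3, against 33.5, 40.2 and 36.9 FPKM in control replicates 1, 2 and 3. It fell by 0.60 ± 0.16 (SE; limma adjusted p = 0.0230), a call that ended without control replicate 2 or 3 (adjusted p up to 0.0839). Its change was −0.36 without knockout replicate 3 and control replicate 2 together. Egln1, the prolyl hydroxylase PHD2 that PCBP1 supplies with iron, rose by 0.55 ± 0.09 (limma adjusted p = 0.00535). Ncoa4, the receptor that takes ferritin to the lysosome, was at 29.3 ± 1.81 FPKM in knockout and 29.2 ± 0.63 FPKM in control tissue (SD, n = 3 each), and was not called (limma adjusted p = 0.998).

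Of 3 other poly(rC)-binding proteins 1 was called, with a list median of 0.24. Pcbp3 rose by 0.54 ± 0.10 on the log2 scale (SE; limma adjusted p = 0.00739), with 5.07 ± 0.29 FPKM in knockout and 3.34 ± 0.30 FPKM in control tissue (SD, n = 3 each). Hnrnpk, the abundant nuclear protein hnRNP K, was at 132 ± 2.80 FPKM in knockout and 139 ± 6.25 FPKM in control tissue, a change of −0.07 ± 0.08 on the log2 scale (SE; limma adjusted p = 0.477). In the citrate list, Slc25a1, which exports mitochondrial citrate to the cytosol, rose by 0.61 ± 0.16 (limma adjusted p = 0.0222), and its call ended without control replicate 2, control replicate 3 or knockout replicate 2 (adjusted p = 0.0770, 0.0768 and 0.0546). Its change was 0.39 without knockout replicate 3 and control replicate 2 together (adjusted p = 0.0532), and it was the only one of the 3 genes called there, where the median was 0.61.

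**Figure D4:**
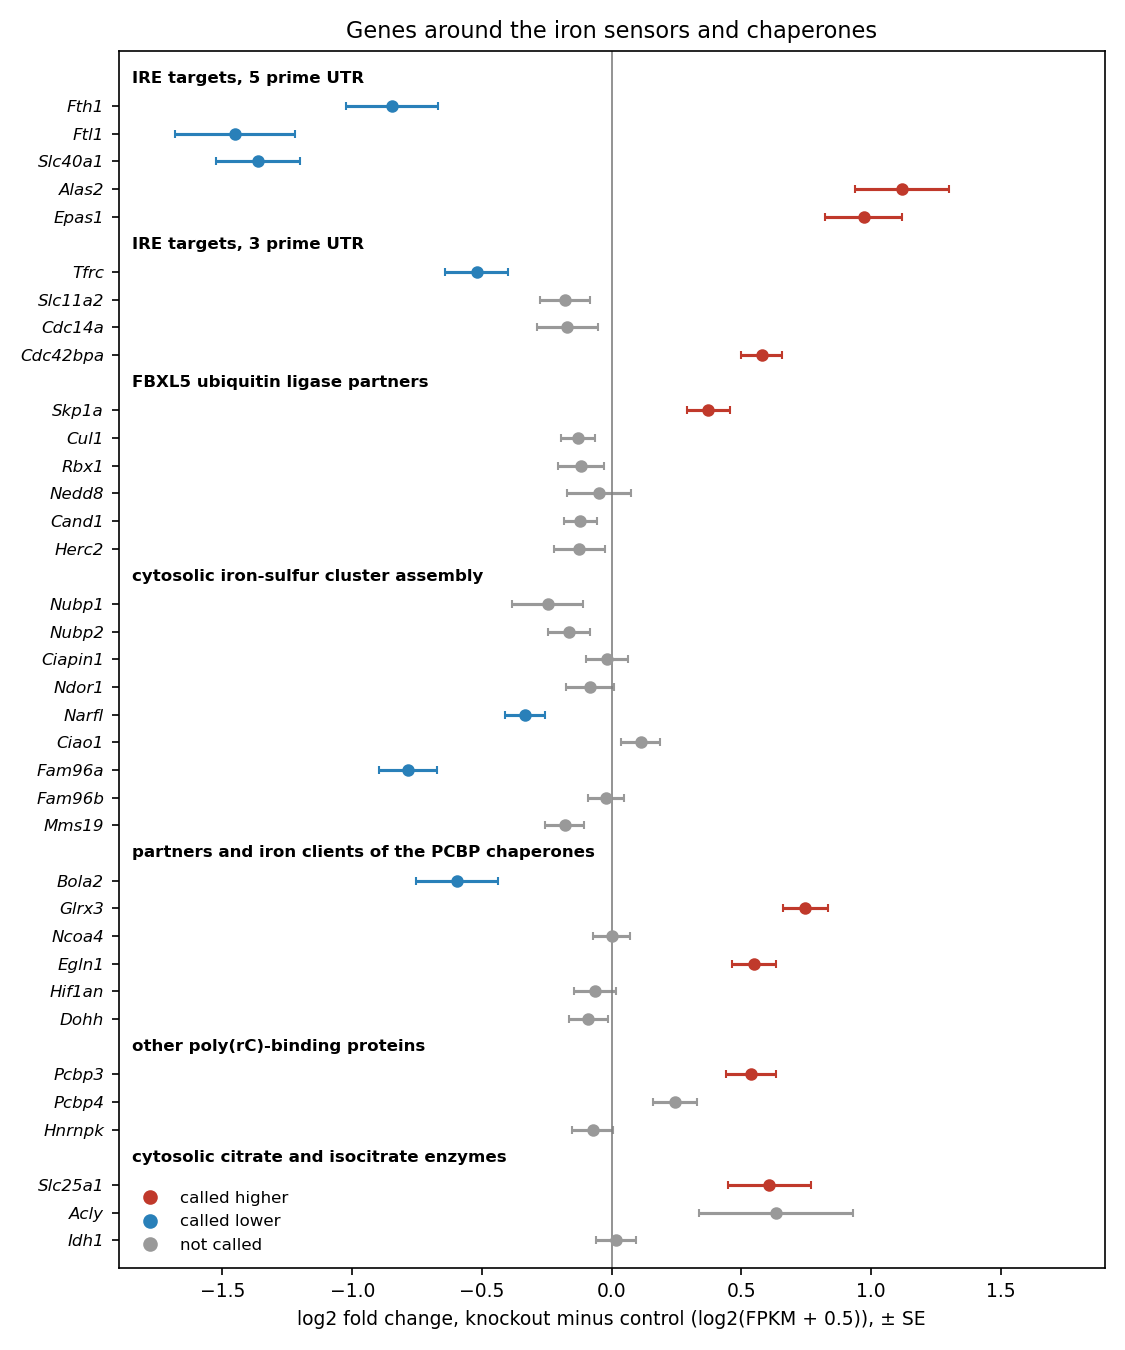
Log2 fold change, knockout minus control, of genes in the 7 lists, with the limma SE as bars and 1 gene not shown; red marks genes called higher, blue called lower and grey not called. Listed targets of the 5′ kind lie on both sides of 0, and Fam96a at −0.79 has the lowest value of the cluster assembly list.

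Genes with the most similar profile over the 6 samples were found by the root mean square difference of log2(FPKM + 0.5), each profile centred on its own mean, among 8233 other genes averaging 5 FPKM or more. For Aco1 they were Galm, Uqcr10 and Rbfox2, at differences of 0.02, 0.03 and 0.03, where the median gene was at 0.35. Galm, an enzyme of galactose breakdown, was at 14.3, 15.3 and 19.0 FPKM in knockout replicates 1, 2 and 3, against 11.1, 10.5 and 10.7 FPKM in control replicates 1, 2 and 3. Uqcr10 encodes a subunit of respiratory complex III. For Pcbp1 they were Ap3b1, Rhoa and Ids, all at 0.02 with a median gene at 0.22. For Pcbp2 they were Itgb5, Dctpp1 and Tfdp1, at 0.02 each with a median gene at 0.20. The nearest to Ireb2 were Prpf38a, Hif1a and Ralgapa1, at 0.03, 0.03 and 0.04, and the nearest to Fbxl5 were Cep70, Nsmaf and Ccnh, at 0.04, 0.05 and 0.05. No gene among the 5 was among the 3 nearest of another.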

How the data were processed

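Per the labels' protocols, Trizol was used to extract total RNA from the fat, and the NEBNext Ultra kit to prepare libraries. The submitters' processing notes name CASAVA, FastQC, STAR 2.5, HTSeq 0.6.1 and build mm10; for annotation, strand setting and filters nothing is given in the sources used here. The authors deposited FPKM per gene, per the file headers; multiplied by gene length in kilobases, the values of a sample add up to 1000000, and 100% of values above 0 were whole reads within 0.01 of a read. Gene length, the other deposited column, was used as given.

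Genes with at least 0.5 FPKM in 3 samples (14383) were fitted as log2(FPKM + 0.5) with limma 3.58.1 in R 4.3.3, with 1 genotype coefficient, trend and robust moderation, and two-sided p-values adjusted by Benjamini-Hochberg over the whole table. The procedure was tested on simulated data. Ratios were tested by exact permutation over samples. Alternatives were pseudocounts of 0.1 and 1, a filter at 1 FPKM, no filter, median-of-ratios scaling, limma-voom on recovered reads, the replicate number as a block, and libraries left out. Replicate pairs differed beyond counting noise (chi-square per degree of freedom 15.5 to 98.1).

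The 5 genes and the lists were chosen with earlier results of these data known. Named were the 5 genes, called list genes, Tfrc, Fth1, Ftl1, Slc40a1, Slc11a2, Hnrnpk, Fam96a and Ncoa4 in any case, the 3 nearest profiles of each gene (predicted genes and pseudogenes left out), and Adipoq and Adgre1 as marker examples, of which Adipoq is given; 1 gene of this rule is not reported here. Bst1, Map3k12 and 1600020E01Rik were named after their values were seen, as was Gm26518. Gm27406, without values, was named for its overlap with Pcbp2.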

Additional observations from a re-analysis of the deposited data

How the results depend on the processing

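Across 14 alternative fits, Aco1 kept its direction and its call, and Ireb2 and Pcbp2 kept their direction and stayed uncalled. Pcbp1 kept its direction in all 14, with changes of −0.37 to −0.24 over the fits that left libraries out, but lost its call in 5. With the replicate block its change was −0.32 with a limma adjusted p of 0.0685. The numbers are not said to pair animals. Same-numbered samples deviated from their group means with correlations of −0.24, 0.03 and −0.18. With 3 samples a group the deviations cancel within each group, so these correlations cannot tell whether same-numbered samples were paired. Under the block 4581 genes were called and 14 of the listed pathway genes. There Narfl and Slc25a1 had limma adjusted p of 0.0527 and 0.0520, and Aco1 had an adjusted p of 0.0310. Fbxl5, never called, had log2 fold changes from −0.03 to 0.10 with single libraries left out: −0.02 without control replicate 2, −0.03 without control replicate 3, −0.0037 without knockout replicate 1 and −0.029 without knockout replicate 2. The count of genes called, 6253 with all libraries, ran from 3336 (without control replicate 2) through 3421 (without control replicate 3) to 5861 with 1 library left out, and that of pathway genes from 10 to 16; with control replicate 2 left out 61.5% of calls were higher in knockout, against 50.3% with all libraries. The 3 ratios kept their direction in each of 8 alternatives. With 3 samples a group their exact permutation p cannot fall under 0.1, so a p at that floor says nothing on stability. With 1 library left out it stayed at 0.1 for Aco1 over Ireb2. The exact permutation p was 0.2 for Pcbp1 over Pcbp2 without knockout replicate 1, 2 or 3. It was also 0.2 for Fbxl5 over Ireb2 without control replicate 3. The cause of the lost calls was not tested.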
